A study of Mus musculus with 8 samples.

Results

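The Cyp4 fatty acid hydroxylases measured here are 10 genes, 6 of the Cyp4a subfamily (Cyp4a10, Cyp4a12a, Cyp4a12b, Cyp4a14, Cyp4a31 and Cyp4a32), 3 of the Cyp4f subfamily (Cyp4f13, Cyp4f14 and Cyp4f15) and Cyp4v3, taken by symbol from the 23337 genes counted in mouse liver RNA. All 10 were present in all 8 libraries and all 10 passed the filter on low counts that left 14328 genes for testing. They were chosen by name and with the fasting and genotype differences of these same counts already known, so the adjusted p-values of the members are given as a description and no test was made over the list.

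Liver RNA was sequenced from C57BL/6 mice aged 12 weeks, with 2 libraries in each of 4 groups. WT mice were either fasted overnight or fasted overnight and then refed for 4 h. HRD1Alb mice, labelled Hrd1-/-, carry floxed alleles of the ubiquitin ligase gene HRD1 (Syvn1 in the counts). Cre recombinase deletes these alleles under the albumin promoter, which acts in hepatocytes, and the study states that deletion begins early in liver development. HRD1Alb mice were fasted or refed in the same way. The study describes its controls for HRD1Alb mice as floxed animals without Cre, and its sequencing methods name them only as WT. If these are the same controls, the Cre transgene differs between the groups along with the deletion. One protocol label describes refeeding for every library, so the fasted groups were taken from the titles and the treatment labels, and sex is not given in the labels. No group fed without a preceding fast was included, so a difference between fasted and refed liver cannot be told apart from the time since the last meal or the time of day. The labels do not say that the 2 libraries of a group came from separate animals, so each p-value measures the spread between these libraries, and an exact two-sided permutation test of 2 against 2 cannot give a p below 0.333.

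CYP4 enzymes are microsomal cytochrome P450 monooxygenases that oxidise the terminal (omega) carbon of fatty acids, drawing electrons from cytochrome P450 reductase. The products are converted to dicarboxylic acids by alcohol and aldehyde dehydrogenases and then shortened in peroxisomes, a side route of fat disposal that liver uses more in fasting. Cyp4a10 and Cyp4a14 are textbook targets of PPARA, the nuclear receptor that senses fatty acids and switches on fat oxidation during a fast, whereas Cyp4a12a and Cyp4a12b are known in mouse liver and kidney for higher expression in males.

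The members lie in 2 clusters and at 1 lone locus. On GRCm38 the Cyp4a genes span positions 115299046 to 115621602 of chromosome 4 with 12 or 13 exons each, the Cyp4f genes span 32685627 to 32947402 of chromosome 17, and Cyp4v3 occupies 45304944 to 45333216 of chromosome 8 with 11 exons. Several are near-identical copies. The coding sequences of Cyp4a12a and Cyp4a12b were 98.5% identical, and Cyp4a10 shared 97.2% with Cyp4a32 and 96.6% with Cyp4a31, while Cyp4a14 shared 75.6% with Cyp4a10. The 50-base windows of each transcript were compared with the transcripts of the other Cyp4 genes, and with no other genes. The share also found in another Cyp4 gene was 48.9% for Cyp4a12a, 49.4% for Cyp4a12b, 46.8% for Cyp4a32, 30.5% for Cyp4a10 and 20.1% for Cyp4a31. It was 0.245% for Cyp4a14, 2.45% to 2.72% for the Cyp4f genes and 0 for Cyp4v3. The read length and the treatment of reads that match several places are not given in the sources used here, so values of Cyp4a10, Cyp4a12a, Cyp4a12b, Cyp4a31 and Cyp4a32 are uncertain as single genes and are also given summed.

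Promoter sequences from RefSeq on GRCm38.p6 were matched for 5 of the 10 members (Cyp4a32, Cyp4f13, Cyp4f14, Cyp4f15 and Cyp4v3). The 250 bases before the start site are shown for the 2 of them with opposite differences between fasted and refed liver, Cyp4a32, which was higher in fasted liver, and Cyp4f14, whose values were higher in refed liver. Capitals mark TATAAA on the reverse strand, the only searched motif found in either window.
Cyp4a32, chr4:115600688-115600937, plus strand: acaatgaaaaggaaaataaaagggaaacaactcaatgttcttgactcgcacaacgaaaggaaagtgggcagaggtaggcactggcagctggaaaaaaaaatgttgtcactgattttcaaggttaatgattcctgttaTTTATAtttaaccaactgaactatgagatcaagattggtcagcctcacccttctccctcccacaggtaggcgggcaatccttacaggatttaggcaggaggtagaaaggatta
Cyp4f14, chr17:32917357-32917606, minus strand, the outermost of 4 start sites: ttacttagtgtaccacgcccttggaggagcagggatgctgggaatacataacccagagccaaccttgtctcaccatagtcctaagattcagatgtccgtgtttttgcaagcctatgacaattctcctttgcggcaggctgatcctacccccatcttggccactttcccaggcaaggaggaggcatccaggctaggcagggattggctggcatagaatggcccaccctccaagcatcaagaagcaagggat
Both strands were searched. The core letters of nuclear receptor sites, AGGTCA, occurred in 4607 of 32851 promoters of the same length, the PPARA-type direct repeat (2 copies of AGGTCA with 1 base between them) in 0.0335% exactly and in 3.24% with up to 2 mismatches, the STAT5-type motif TTCNNNGAA in 7.02% and TATAAA in 12.4%. Among the 5 members the search found only TATAAA in Cyp4a32, 113 to 108 bases before the start, and TTCAGAGAA in Cyp4f13, 22 to 14 bases before it. An absent match says only that these letters are not in this window.

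Total counts ranged from 40210576 to 49117080 per library, so that 3 counts corresponded to 0.0611 to 0.0746 CPM, and every member lay far above this limit in every library. CPM, read counts scaled to the size of the library, are given after TMM normalization throughout. Reads on Syvn1, the targeted gene, stood at 111 and 99.8 CPM in fasted WT, 637 and 305 in refed WT, 32.6 and 31.5 in fasted HRD1Alb and 453 and 132 in refed HRD1Alb liver. Its log2 fold change between genotypes was -1.72 in fasted and -0.686 in refed liver. Neither passed the threshold of an adjusted p under 0.05 in the edgeR quasi-likelihood test. The Syvn1 value of the library labelled HRD1Alb refed replicate 1 lay between those of the refed WT libraries, and counts per gene do not show whether the deleted exons were present. Its other values were not those of WT. The summed level of the 25 male-biased genes described below was 6131 CPM in it and 12008 in replicate 2, against 40986 and 31401 in refed WT liver. Genes with any count numbered 16670 in it and 16084 in replicate 2, against 16607 and 16611 in fasted HRD1Alb liver. Which of the 2 is less typical was not tested. The 2 refed HRD1Alb libraries also stood apart from each other, with a Spearman correlation of 0.955 and 3204 genes at least 2-fold apart, against 0.990 to 0.995 and 424 to 1141 genes in the other groups. Because all groups share one estimate of spread, the counts of members and of the 5 lists of metabolic and sex-biased genes are given below with and without each of them, and those of the other lists with all 8 libraries. Among genes that follow feeding, Pck1, an enzyme of glucose synthesis, was higher in fasted than in refed liver by a log2 fold change of 3.04 in WT and 3.40 in HRD1Alb (edgeR quasi-likelihood test, adjusted p = 0.00488 and 0.00183). All 8 libraries had Xist at 0.0988 to 0.508 CPM and the Y-linked gene Ddx3y at 55.2 to 121 CPM. This is the pattern of male tissue, in WT and HRD1Alb libraries alike.

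**Figure D1:**
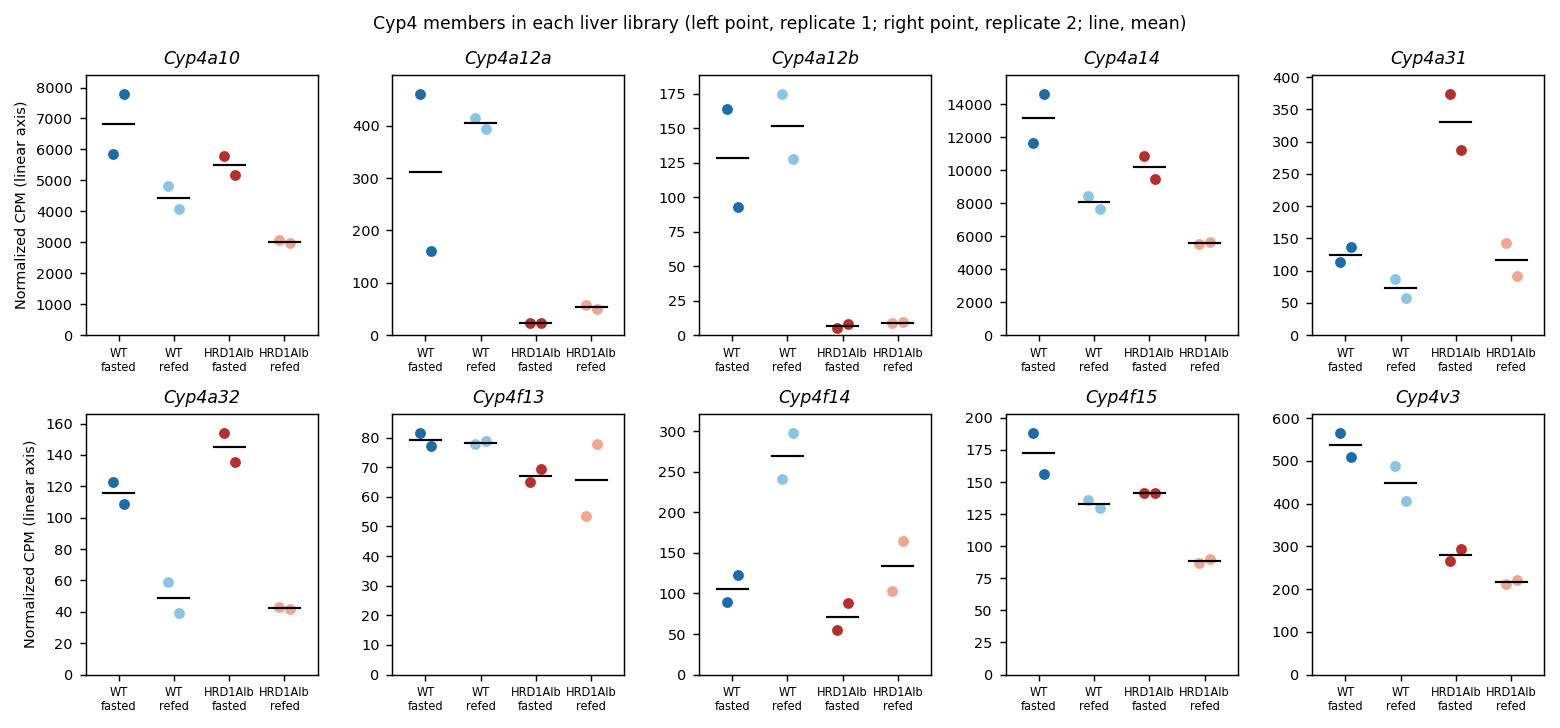
Normalized CPM (linear axes from 0) of the 10 members in each of the 8 libraries, by group; the points are the single libraries and the line is the mean of the 2. Cyp4a12a and Cyp4a12b sit at 57.1 CPM or less in all HRD1Alb libraries, Cyp4a31 is highest in fasted HRD1Alb liver, and Cyp4f14 has its highest values in refed WT liver.

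Cyp4a14 and Cyp4a10 had the highest levels per kilobase of the 10 members in every group. Together they made up 88.5% to 94.3% of the counts on the 10 genes, which in turn took 0.926% to 1.99% of all counts in a library. Per kilobase of transcript, the level in refed WT liver was 3224 ± 217 CPM per kb (SD, n = 2) for Cyp4a14 and 2105 ± 245 for Cyp4a10, followed by 167 ± 5.66 for Cyp4a12a. Cyp4f14 at 121 ± 18.0 and Cyp4v3 at 117 ± 15.4 CPM per kb came next and did not differ beyond their spread, nor did Cyp4a12b at 63.3 ± 13.9 and Cyp4f15 at 61.3 ± 2.26. Cyp4f13 at 44.7 ± 0.340 was followed by Cyp4a32 at 32.1 ± 8.86 and Cyp4a31 at 28.9 ± 8.09 CPM per kb, again within their spread. The annotated Cyp4a32 transcript equals its coding sequence, so its level per kilobase may be too high beside the others. In fasted HRD1Alb liver the order was different below the leading pair. Cyp4a31 came next at 132 ± 24.5 CPM per kb, while Cyp4a12a at 9.82 ± 0.202 and Cyp4a12b at 2.82 ± 0.981 CPM per kb were the lowest of the 10 in that group.

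The first comparison asked how deletion of HRD1 changed the members. Cyp4a12a and Cyp4a12b, whose products hydroxylate arachidonic acid as well as other fatty acids, were lower in HRD1Alb liver under both feeding states, and Cyp4v3, the mouse counterpart of human CYP4V2, was lower in each as well. Cyp4a31 had higher values in HRD1Alb liver, and the PPARA targets Cyp4a10 and Cyp4a14 had modestly lower values. By the edgeR quasi-likelihood test with Benjamini-Hochberg adjustment over all genes, 3 of 10 members were called lower and 0 higher in fasted HRD1Alb liver, beside 1.35% of all genes called in either direction, 0.433% lower and 0.921% higher. In refed liver 4 were called lower and 0 higher, beside 11.9% of all genes in either direction, 4.84% lower and 7.09% higher. The median log2 fold change of the members was -0.34 in fasted and -0.57 in refed liver, against -0.02 and 0.04 over all genes tested.

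Cyp4a12a was measured at 461 and 161 CPM in fasted WT liver and at 23.4 and 24.1 CPM in fasted HRD1Alb liver. In refed liver it stood at 414 and 394 CPM in WT and at 57.1 and 49.3 CPM in HRD1Alb. All 4 HRD1Alb libraries were below all 4 WT libraries, although the fasted WT libraries differed from each other by far more than the refed ones did. The log2 fold change was -3.71 (SE 0.46, edgeR adjusted p = 0.0232), or 13.1-fold lower, in fasted liver and -2.93 (SE 0.45, adjusted p = 0.0142), or 7.60-fold lower, in refed liver. Cyp4a12b followed the same pattern at lower levels. It stood at 164 and 93.0 CPM in fasted WT and 5.08 and 8.41 CPM in fasted HRD1Alb liver, and at 175 and 128 against 8.62 and 9.34 CPM in refed liver. Again no HRD1Alb library reached the lowest WT library, and the log2 fold changes were -4.25 (SE 0.38, edgeR adjusted p = 0.0128) and -4.08 (SE 0.38, adjusted p = 0.00559), or 19.0-fold and 16.9-fold lower. Since these copies can exchange reads, they were also summed into 1 feature. The sum was 625 and 254 CPM in fasted WT and 28.5 and 32.5 CPM in fasted HRD1Alb liver, and 589 and 523 against 65.7 and 58.7 CPM in refed liver. It was called lower in both states, with log2 fold changes of -3.85 (SE 0.41, edgeR adjusted p = 0.0167) and -3.16 (SE 0.40, adjusted p = 0.0105). The ratio of Cyp4a12a to Cyp4a12b counts was 1.73 to 3.08 in the WT libraries and 2.87 to 6.62 in the HRD1Alb libraries, and these ranges overlap. In fasted liver the call of Cyp4a12a was lost without WT fasted replicate 1, either refed WT library or either fasted HRD1Alb library (edgeR adjusted p from 0.0693 to 0.281), and that of Cyp4a12b without any 1 fasted library (adjusted p from 0.0567 to 0.129). In refed liver both calls were lost without either refed WT library (adjusted p from 0.0575 to 0.104).

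Other genes known for higher expression in male liver were lower in the same libraries. From a list of 26 such genes, 24 were tested. Of these, 7 were called lower and 0 higher in fasted HRD1Alb liver, and 13 lower and 0 higher in refed HRD1Alb liver. The median log2 fold changes were -2.12 and -2.08. Of all genes, 0.433% in fasted and 4.84% in refed liver were called lower with all 8 libraries, and 0.921% and 7.09% higher. Hsd3b5, a steroid dehydrogenase, had log2 fold changes of -5.18 in fasted and -6.45 in refed liver (edgeR adjusted p = 0.0385 and 0.00991), and Elovl3, a fatty acid elongase, had -4.62 in fasted liver (adjusted p = 0.0362). The summed level of the 25 listed genes present in the files was 31401 to 45478 CPM in WT and 6131 to 12008 CPM in HRD1Alb libraries, as the plot of summed levels shows, and without the library labelled HRD1Alb refed replicate 1 the counts lower were 20 and 15, and without replicate 2 they were 20 and 16. Of 28 tested genes known for higher expression in female liver, 4 were called higher in fasted and 6 in refed HRD1Alb liver with 0 lower, among them Sult1e1, an estrogen sulfotransferase, with a log2 fold change of 2.81 in fasted liver (edgeR adjusted p = 0.0213). Without the library labelled HRD1Alb refed replicate 1 these counts were 12 and 12 higher, and without replicate 2 they were 12 higher, and 8 higher with 2 lower. For both lists, these fits called 21.7% of all genes in fasted and 52.8% in refed liver without replicate 1, and 21.3% and 23.7% without replicate 2. In the growth hormone pathway, which sets these sex differences in liver, 0 of 11 tested genes were called in fasted liver and 2 were called lower in refed liver, the transcription factor gene Onecut1 by -1.66 and the receptor gene Ghr by -0.96 (edgeR adjusted p = 0.0389 and 0.019). The part that these genes have in the Cyp4a12a and Cyp4a12b result was not tested. Some genes of the 2 sex-biased lists also differed manyfold between WT replicates 1 and 2, with the same sign in both feeding states. Male-biased Mup7 stood at 2322 and 148 CPM in fasted and 1175 and 160 in refed WT liver. Female-biased Cyp2b9 stood at 0.698 and 21.8 CPM in fasted and 0.444 and 11.8 in refed WT liver. Others did not, such as Hsd3b5 at 99.2 and 103 CPM in refed WT liver.

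**Figure D2:**
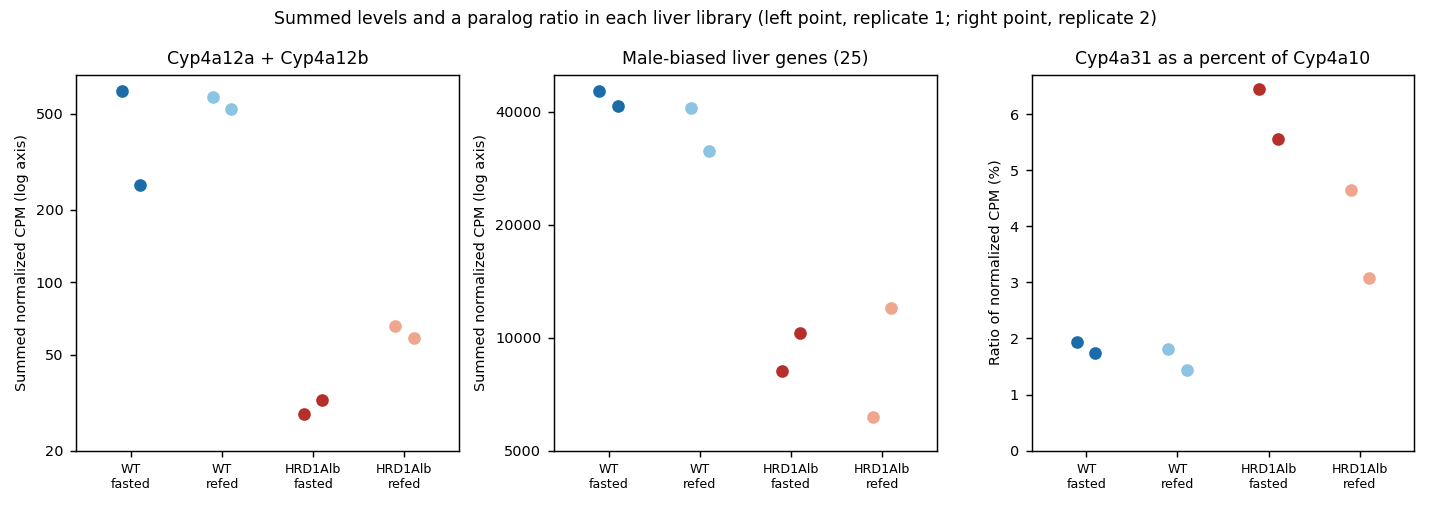
Summed normalized CPM of Cyp4a12a and Cyp4a12b (left, log axis) and of 25 male-biased liver genes (middle, log axis), and Cyp4a31 as a percent of Cyp4a10 (right, linear axis from 0), in each of the 8 libraries by group; each point is 1 library. The HRD1Alb libraries lie below all WT libraries in the first 2 panels (28.5 to 65.7 against 254 to 625 CPM in the left one) and above all WT libraries in the right one (3.09% to 6.45% against 1.43% to 1.94%). Much of the middle sum comes from a few abundant genes, such as Serpina3k (4239 to 18798 CPM over all libraries) and Mup3 (316 to 10819 CPM).

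Cyp4v3 was also lower under both feeding states. Its level was 565 and 509 CPM in fasted WT against 266 and 293 CPM in fasted HRD1Alb liver, and 489 and 406 against 211 and 221 CPM in refed liver. All 4 HRD1Alb libraries lay below all WT libraries, and the log2 fold changes were -0.94 (SE 0.17, edgeR adjusted p = 0.0484) and -1.05 (SE 0.17, adjusted p = 0.0152). Cyp4v3 shares no 50-base window with a transcript of another Cyp4 gene, and other genes were not searched. The fasted call was lost without any 1 library outside the refed HRD1Alb group (edgeR adjusted p from 0.117 to 0.423), and the refed call without either refed WT library (adjusted p = 0.137 and 0.104).

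Cyp4a31 had values in the other direction. It stood at 114 and 136 CPM in fasted WT and 374 and 287 CPM in fasted HRD1Alb liver, and at 86.9 and 58.2 against 143 and 91.7 CPM in refed liver. The groups did not overlap in either feeding state, but the log2 fold changes of 1.40 (SE 0.29, edgeR adjusted p = 0.0673) and 0.69 (SE 0.29, adjusted p = 0.143) did not pass the threshold. Without the library labelled HRD1Alb refed replicate 1, the adjusted p for fasted liver was 0.00792, and without replicate 2 it was 0.00819. Its near copies had other values. Cyp4a32 had log2 fold changes of 0.32 and -0.21 and Cyp4a10 of -0.32 and -0.55, none of them called (adjusted p from 0.117 to 0.489), and Cyp4a31 counts came to 1.43% to 1.94% of Cyp4a10 counts in WT and to 3.09% to 6.45% in HRD1Alb libraries, as the plot of this ratio shows. When the counts of Cyp4a10, Cyp4a31 and Cyp4a32 were summed into 1 feature, which Cyp4a10 dominates, the log2 fold changes were -0.25 in fasted and -0.52 in refed liver, neither called.

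Cyp4a14 stood at 11647 and 14618.5 CPM in fasted WT and 10872 and 9451 CPM in fasted HRD1Alb liver, and at 8429 and 7664 against 5553 and 5617 CPM in refed liver. Both HRD1Alb libraries were below both WT libraries in each state, by log2 fold changes of -0.37 (SE 0.20) and -0.53 (SE 0.20) that did not pass the threshold (edgeR adjusted p = 0.389 and 0.120). The ratio of Cyp4a14 to Cyp4a10 stayed within 1.75 to 1.99 in all 8 libraries.

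Of the Cyp4f genes, Cyp4f15 was called lower in refed HRD1Alb liver. It stood at 136 and 129 CPM in refed WT and 86.9 and 89.9 CPM in refed HRD1Alb liver, a log2 fold change of -0.59 (SE 0.15, edgeR adjusted p = 0.0497), and at 188 and 157 against 141 and 141 CPM in fasted liver. The refed call lies at the threshold, and it was lost without any 1 of the 6 libraries that are not refed HRD1Alb (adjusted p up to 0.260). Cyp4f14, which inactivates the inflammatory lipid leukotriene B4, stood at 241 and 298 CPM in refed WT and 103 and 165 CPM in refed HRD1Alb liver, with a log2 fold change of -1.01 (SE 0.32, adjusted p = 0.0797). In fasted liver its values were 88.9 and 123 against 55.0 and 87.9 CPM, lower in HRD1Alb but not called (log2 fold change -0.57, adjusted p = 0.400). Cyp4f13 was not called, with log2 fold changes of -0.24 and -0.25 and values from 53.5 to 81.5 CPM over all 8 libraries.

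In all, the HRD1Alb and WT libraries did not overlap for 10 of 10 members in fasted liver, 8 of them lower in HRD1Alb, where 64.9% of all genes did not overlap (30.6% higher and 34.2% lower). In refed liver they did not overlap for 9 of 10 members, again 8 lower, where 60.8% of all genes did not (30.7% higher and 30.1% lower). Fits that left out 1 library also changed the number of all genes called. That share is given below only for the fits without a refed HRD1Alb library. Counts of members from the other fits are therefore no result about the members. The number of members called in fasted liver was 0 without WT fasted replicate 1 or either fasted HRD1Alb library, 1 without WT fasted replicate 2 or either refed WT library, and 4 without either refed HRD1Alb library, where 21.7% of all genes were called without the library labelled replicate 1 and 21.3% without replicate 2. In refed liver it was 0 without either refed WT library, 3 without any 1 fasted library, 4 without the library labelled HRD1Alb refed replicate 1 and 7 without replicate 2, while 52.8% and 23.7% of all genes were called in the last 2 fits.

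**Figure D3:**
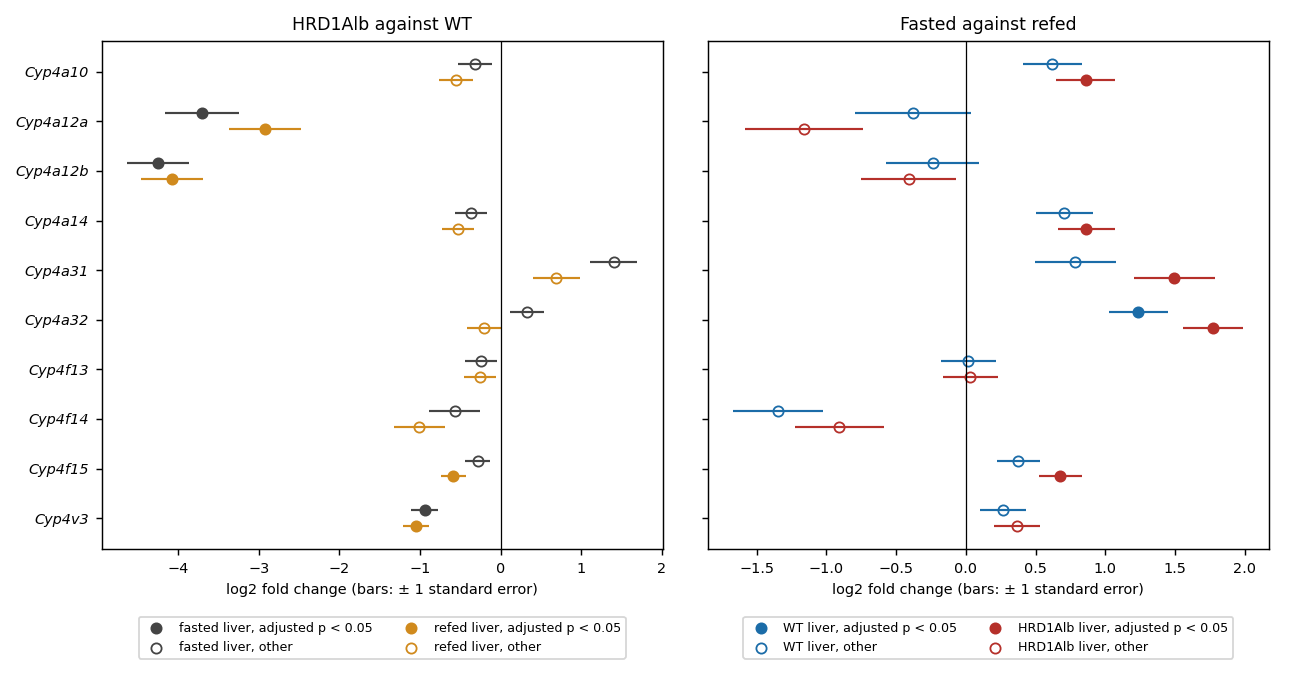
Log2 fold change of each member with its standard error (bars, 1 SE on each side), HRD1Alb against WT on the left and fasted against refed liver on the right; filled points have an edgeR adjusted p under 0.05 and open points do not. Cyp4a12a and Cyp4a12b lie between -4.25 and -2.93 on the left, and Cyp4a32 is filled in both genotypes on the right at 1.24 and 1.77.

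The second comparison asked how the members differed between fasted and refed liver, the response for which PPARA targets are known. Cyp4a10, Cyp4a14, Cyp4a31 and Cyp4a32 had higher values in fasted liver of both genotypes, whereas Cyp4a12a, Cyp4a12b and Cyp4f14 had lower means, and Cyp4f13 overlapped in both. In WT liver 1 of 10 members was called higher in fasted liver and 0 lower, beside 2.61% of all genes in either direction, 1.41% higher and 1.2% lower. In HRD1Alb liver 5 members were called higher and 0 lower, beside 10.5% of all genes in either direction, 5.05% higher and 5.43% lower. The median log2 fold change of the members, fasted minus refed, was 0.32 in WT and 0.52 in HRD1Alb liver, against -0.00132 and -0.02 over all genes tested.

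Cyp4a32 had the largest fasted to refed difference of the 10 in both genotypes among those higher in fasted liver. It stood at 123 and 109 CPM in fasted against 58.7 and 39.5 CPM in refed WT liver, a log2 fold change of 1.24 (SE 0.21, edgeR adjusted p = 0.0361). In HRD1Alb liver it stood at 154 and 136 against 42.8 and 42.0 CPM, a log2 fold change of 1.77 (SE 0.22, adjusted p = 0.00734). The WT call was lost when any 1 library outside the refed HRD1Alb group was left out (adjusted p from 0.103 to 0.279). Cyp4a31 stood at 374 and 287 CPM in fasted against 143 and 91.7 CPM in refed HRD1Alb liver, a log2 fold change of 1.50 (SE 0.29, edgeR adjusted p = 0.0251). Its values of 86.9 and 58.2 against 114 and 136 CPM in WT gave a log2 fold change of 0.78 (SE 0.29, adjusted p = 0.235) that did not pass.

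Cyp4a10 and Cyp4a14, the abundant pair, were called higher in fasted HRD1Alb liver. Cyp4a10 stood at 3075 and 2973 CPM in refed and 5799 and 5167 CPM in fasted HRD1Alb liver, a log2 fold change of 0.86 (SE 0.21, edgeR adjusted p = 0.0452), and at 4805 and 4074 against 5859.5 and 7796 CPM in WT, with a log2 fold change of 0.62 (SE 0.21, adjusted p = 0.200). For Cyp4a14 the log2 fold change was 0.86 (SE 0.20, edgeR adjusted p = 0.0402), or 1.82-fold, in HRD1Alb and 0.71 (SE 0.20, adjusted p = 0.135), or 1.63-fold, in WT liver. The Cyp4a14 levels were 5553 and 5617 CPM in refed against 10872 and 9451 CPM in fasted HRD1Alb liver, and 8429 and 7664 against 11647 and 14618.5 CPM in WT liver. Both genes were higher in each fasted library than in each refed library of the same genotype. With Cyp4a10, Cyp4a31 and Cyp4a32 summed, the WT value was 0.63 and was not called (adjusted p = 0.194).

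Cyp4f14 and Cyp4f15, both on chromosome 17, had values of opposite sign. Cyp4f14 was 2.54-fold lower in fasted than in refed WT liver, a log2 fold change of -1.35 (SE 0.32, edgeR adjusted p = 0.0869), and had a log2 fold change of -0.91 (SE 0.32, adjusted p = 0.109) in HRD1Alb liver. All 4 fasted libraries were below the refed libraries of their genotype, and without either refed HRD1Alb library the WT difference was called (adjusted p = 0.0122 and 0.0125). Cyp4f15 was higher in fasted HRD1Alb liver by a log2 fold change of 0.68 (SE 0.15, edgeR adjusted p = 0.0368), with 0.38 (SE 0.15, adjusted p = 0.282) in WT liver. The 3 Cyp4f genes summed into 1 feature had log2 fold changes of -0.43 in WT and -0.04 in HRD1Alb liver, opposite in sign to Cyp4f15 alone. Cyp4a12a had a fasted minus refed log2 fold change of -1.16 (SE 0.42, adjusted p = 0.115) in HRD1Alb liver, where both fasted libraries lay below both refed ones, and -0.38 in WT liver, where the groups overlapped. Cyp4a12b overlapped in WT liver too, with a log2 fold change of -0.24, and had -0.41 in HRD1Alb liver (adjusted p = 0.818 and 0.432), and Cyp4v3 had 0.26 and 0.37 (adjusted p = 0.510 and 0.172).

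The test of whether the fasted to refed difference itself differed between genotypes called 0 of 10 members by edgeR, and 0 had an unadjusted p under 0.05. DESeq2 and limma-trend also called 0 members. Over all genes edgeR called 0 (1209 genes, 8.44%, at an unadjusted p under 0.05) and DESeq2 called 105. The largest member values were 0.71 (SE 0.41, adjusted p = 0.615) for Cyp4a31 and -0.78 (SE 0.59, adjusted p = 0.658) for Cyp4a12a on the log2 scale, so the 5 calls in HRD1Alb against 1 in WT liver are not shown to differ. Without the library labelled HRD1Alb refed replicate 1, Cyp4a31 was called (adjusted p = 0.0478) while 33.4% of all genes were called.

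The fasted and refed libraries did not overlap for 7 of 10 members in WT, 6 of them higher in fasted liver, where 60.4% of all genes did not overlap (29.6% higher and 30.8% lower). In HRD1Alb liver they did not overlap for 9 of 10 members, 6 higher and 3 lower, where 58.7% of all genes did not (29.5% higher and 29.2% lower). The share of all genes called is again given only for the fits without a refed HRD1Alb library. Counts of members from the other fits are no result about the members. In WT liver the number of members called was 4 without either refed HRD1Alb library, where 17.2% and 17% of all genes were called, and 0 without any 1 of the other 6. In HRD1Alb liver the number was 0 without either fasted HRD1Alb library, 2 without any 1 WT library, and 6 and 5 without the library labelled HRD1Alb refed replicate 1 and without replicate 2, where 51.4% and 19.7% of all genes were called. The HRD1Alb calls of Cyp4a10, Cyp4a14 and Cyp4f15 were each lost without any 1 library outside the refed HRD1Alb group (edgeR adjusted p up to 0.254, 0.248 and 0.221), that of Cyp4a31 without any 1 fasted library (up to 0.170) and that of Cyp4a32 without either fasted HRD1Alb library (0.0784 and 0.0645).

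**Figure D4:**
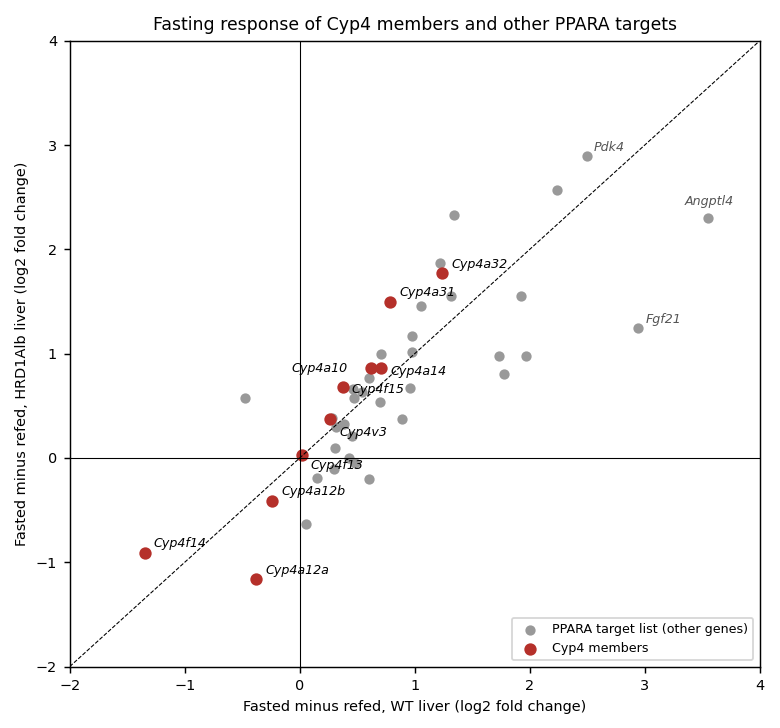
Log2 fold change between fasted and refed liver in WT (horizontal axis) and in HRD1Alb liver (vertical axis) for the 10 members (red) and 34 other PPARA target genes (grey); the dashed line marks equal values. Cyp4a32 at 1.24 and 1.77 and Cyp4a31 at 0.78 and 1.50 lie among the grey points, and Cyp4f14 at -1.35 and -0.91 lies apart at the lower left.

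Other genes of the PPARA program were higher in fasted liver as well. In a list of 36 known PPARA targets outside the Cyp4 family, 34 were tested, and 10 were called higher and 0 lower in fasted than in refed WT liver, with 33 of 34 positive values and a median log2 fold change of 0.70. In HRD1Alb liver 15 were called higher and 0 lower, with 28 positive values and a median of 0.67. Of all genes, 1.41% in WT and 5.05% in HRD1Alb liver were called higher in fasted liver with all 8 libraries. Angptl4, an inhibitor of lipoprotein lipase, had log2 fold changes of 3.55 in WT and 2.30 in HRD1Alb liver, and Pdk4, a kinase that spares glucose, of 2.49 and 2.89 (edgeR adjusted p = 0.00432, 0.00399, 0.0385 and 0.0135). Fgf21, a fasting hormone of the liver, had 2.94 in WT and 1.24 in HRD1Alb liver (edgeR adjusted p = 0.00509 and 0.0146). The test of the difference between these 2 Fgf21 values did not pass (edgeR adjusted p = 0.544). Without the library labelled HRD1Alb refed replicate 1, the counts were 25 higher and 0 lower in WT and 19 higher and 6 lower in HRD1Alb liver, and without replicate 2 they were 25 higher and 0 lower in each. In these fits 17.2% and 51.4% of all genes were called without replicate 1, and 17% and 19.7% without replicate 2.

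Between genotypes the same list held calls in both directions. With all 8 libraries, 0.921% of all genes were called higher and 0.433% lower in fasted HRD1Alb liver. In refed HRD1Alb liver 7.09% of all genes were called higher and 4.84% lower. In fasted liver 2 genes were called higher in HRD1Alb, the fatty acid transporter gene Cd36 by a log2 fold change of 2.31 and Fgf21 by 1.97 (edgeR adjusted p = 0.014 and 0.0156), and 0 lower, with 28 of 34 values negative. In refed liver 4 were called higher, led by Fgf21 at 3.67 and Angptl4 at 1.66 (adjusted p = 0.00148 and 0.0105), and 3 were called lower, led by the acyl-CoA synthetase gene Acsl1 at -1.37 (adjusted p = 0.0146). Cyp4a10 and Cyp4a14, with -0.55 and -0.53 in refed liver, had the sign of Acsl1 and not that of Fgf21. Leaving out either refed HRD1Alb library gave 4 higher and 9 lower in fasted liver, where 21.7% and 21.3% of all genes were called, and in refed liver 12 higher and 6 lower without the library labelled HRD1Alb refed replicate 1 but 5 higher and 13 lower without replicate 2, where 52.8% and 23.7% of all genes were called.

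Ppara, the receptor gene itself, stood at 537 and 436 CPM in fasted WT, 219 and 227 in refed WT, 325 and 361 in fasted HRD1Alb and 74.6 and 63.7 in refed HRD1Alb liver. The 4 groups did not overlap, and the difference between genotypes was -1.69 on the log2 scale (SE 0.18, edgeR adjusted p = 0.00817) in refed liver and -0.50 (adjusted p = 0.187) in fasted liver. Fasted minus refed, Ppara had log2 fold changes of 1.12 in WT and 2.31 in HRD1Alb liver (adjusted p = 0.031 and 0.00346), and the test of the difference between these did not pass (adjusted p = 0.544). Of the 9 genes of PPARA and its partners, 3 were called lower in refed HRD1Alb liver, namely Ppara, its dimer partner Rxra at -0.63 (adjusted p = 0.0409) and the corepressor gene Nr0b2 at -1.04 (adjusted p = 0.0285), and 0 were called in fasted liver. Without either refed HRD1Alb library the fasted count was 1 higher and 2 lower, and the refed count was 5 lower without the library labelled replicate 1 and 4 lower without replicate 2, in the fits with the shares of all genes just given. Between fasted and refed liver, Nr0b2 was called lower in fasted WT liver at -1.30 (edgeR adjusted p = 0.0336), and the coactivator genes Ppargc1a at 2.73 and Ppargc1b at 1.39 were called higher in fasted HRD1Alb liver (adjusted p = 0.0236 and 0.0251). With Ppara these make 1 higher and 1 lower in WT and 3 higher in HRD1Alb liver. The counts were 3 higher and 1 lower in WT without either refed HRD1Alb library, and 7 and 5 higher in HRD1Alb liver without replicate 1 and without replicate 2, and Ppard, Pparg, Rxrb and Ncor1 had no call with all 8 libraries.

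Along the route that omega-hydroxylated fatty acids take, 23 genes were tested, from electron supply to peroxisomal shortening, some of which are also in the PPARA target list. Por, the reductase that supplies electrons to the CYP4 enzymes, was higher in fasted liver by 1.33 in WT and 1.63 in HRD1Alb on the log2 scale (edgeR adjusted p = 0.0335 and 0.00865). In fasted WT liver 3 genes of this route were called higher and 0 lower, beside 1.41% of all genes called higher. In fasted HRD1Alb liver 6 were called higher and 0 lower, beside 5.05% of all genes called higher. Without the library labelled HRD1Alb refed replicate 1 these counts were 12 higher and 3 lower in WT and 9 higher and 8 lower in HRD1Alb liver, and without replicate 2 they were 12 higher and 3 lower and 9 higher and 0 lower, while 17.2%, 51.4%, 17% and 19.7% of all genes were called. Between genotypes, 1 gene was called lower in fasted liver and 5 in refed liver, with 0 higher. Of all genes, 0.433% in fasted and 4.84% in refed liver were called lower. Scp2, a peroxisomal thiolase and lipid carrier, was lower, at -1.58 in fasted and -1.67 in refed liver (adjusted p = 0.0297 and 0.0105), as was Adh7, an alcohol dehydrogenase, at -1.02 in refed liver (adjusted p = 0.0277). Without the library labelled HRD1Alb refed replicate 1 the counts lower between genotypes were 9 and 6, with 3 higher in refed liver, and without replicate 2 they were 9 and 10 with 0 higher, while 21.7%, 52.8%, 21.3% and 23.7% of all genes were called.

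Bulk liver counts cannot tell fewer cells of a type from less RNA per cell, so marker levels are given beside these differences. The summed level of 10 hepatocyte genes was 121131 to 168050 CPM in WT and 73624 to 118361 CPM in HRD1Alb libraries, with 0 of 10 called in either genotype comparison. Much of this sum is Alb, at 79498 to 110880 CPM in WT and 47753 to 76587 CPM in HRD1Alb libraries. Of all genes, 0.921% in fasted and 7.09% in refed liver were called higher in HRD1Alb. Kupffer cell genes summed to 107 to 122 CPM in WT and 266 to 536 CPM in HRD1Alb libraries, with 1 of 8 called higher in fasted and 7 of 8 in refed liver. Stellate cell genes summed to 164 to 352 CPM in WT and 351 to 485 CPM in HRD1Alb libraries, with 3 of 7 called higher in refed liver. Endothelial genes (105 to 139 CPM), cholangiocyte genes (29.1 to 68.6 CPM) and leukocyte genes (2.42 to 12.4 CPM over all libraries) had 1 call in all, a leukocyte gene higher in refed HRD1Alb liver. Kidney genes, which would mark the other tissue rich in Cyp4a transcripts, summed to at most 0.0782 CPM with 3 to 5 of 5 at 0. The part of these cell type differences in the values of the members was not tested.

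Across the 8 libraries, the genes whose pattern was most like that of Cyp4a14, by the Pearson correlation of log2 CPM over 11918 genes with a mean of at least 1 CPM, were Dram2, 1500003O03Rik and Plbd2 (r = 0.985 each), Bcas3 and Fam13a (0.981 each). For Cyp4a12a they were Smg5 (0.982), Psmd1 (0.981), Idh1 (0.98), Usp14 and Ldhd (0.976 each). Among the members, Cyp4a10 and Cyp4a14 had r = 0.995, Cyp4a12a and Cyp4a12b 0.97, and Cyp4a31 and Cyp4f14 -0.894. These correlations describe 8 libraries in 4 groups that share condition and depth differences, and near-identical copies also share reads.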

How the data were processed

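The deposited files hold counts of reads per gene symbol made by the authors, as whole numbers without normalization, 1 file for each of 8 libraries. The methods of the study name ERANGE for counting, whereas the submitters' processing notes name cutadapt, STAR, HTSeq, DESeq2 and mm10, and the annotation, strand setting and read length are not given in the sources used here. The study determined counts and RPKM values per gene and tested with limma. Here the counts were tested in R 4.3.3 with edgeR 4.0.16 (filterByExpr, minimum count 10 and minimum total 15, TMM, 1 quasi-likelihood fit of 4 groups, Benjamini-Hochberg adjustment over 14328 genes, threshold 0.05). Standard errors were computed from each log2 fold change and its F statistic, as the size of the change over the square root of F. Alternatives were RLE size factors, 2 other filters, DESeq2 1.42.0, limma-trend (limma 3.58.1), only the 4 samples of a contrast, a replicate block, paralogs summed and each library left out. List counts without each refed HRD1Alb library were added after seeing the data. Positions are from GENCODE M21. Coding sequences were aligned with Biopython 1.88. Steps were tested on simulated data.

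The members and gene lists were chosen with earlier results of these data known. The genes named are the members, Syvn1, up to 4 genes per list with an adjusted p under 0.05 by size of change, genes of PPARA and its partners and the sex-linked genes, all of which the rule allowed, and the 5 genes most like Cyp4a14 and Cyp4a12a. Mup7 and Cyp2b9 were added for their spread between the WT libraries. Pck1 comes from a feeding list of 14 genes, of which 7 were called between fasted and refed liver in WT and 10 in HRD1Alb. Limits of detection cover counting error only.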

Additional observations from a re-analysis of the deposited data

How the results depend on the processing

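With 2 libraries a group and 1 shared estimate of spread, the counts of members called depended on single libraries. Leaving out 1 library gave 0 to 4 members for the genotypes in fasted liver (3 with all 8 libraries), 0 to 7 in refed liver (4), 0 to 4 for fasted against refed WT liver (1), 0 to 6 for HRD1Alb liver (5) and 0 to 1 for the interaction (0). All genes called moved too, for example from 1 to 7705 between genotypes in refed liver against 1709. DESeq2 called 7 members in refed liver and 3 for WT fasting, and limma-trend called 3 for HRD1Alb fasting. A fit of only the 4 samples of the contrast called 0 in refed liver, 2 for WT fasting and 0 for HRD1Alb fasting. The share of all genes called is not given for these fits or for the replicate block, so their counts are no result about the members. Over the 50 pairs of member and comparison, RLE lost and gained 0 calls, DESeq2 gained 8 and lost 0, limma-trend lost 2, no filter lost 1 and gained 1, at least 10 counts in every sample lost 2 and gained 0, and the 4-sample fits, which give 40 of them, lost 9 and gained 2. Cyp4a31 between genotypes in fasted liver was called without a filter (adjusted p = 0.0437), by DESeq2 (0.000538) and with 4 samples (0.0121). The filters lost Cyp4f15 between genotypes in refed liver (adjusted p = 0.0607 with none, 0.0567 with at least 10 counts) and, with at least 10 counts, Cyp4v3 in fasted liver (0.0508). A lone library in a group is assumed to vary like the others. The cause of these shifts was not tested.

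The replicate block changed the WT fasting count to 2 by adding Cyp4f14 (log2 fold change -1.36, adjusted p = 0.0230) and gave 2 members between genotypes in fasted and 4 in refed liver, 5 for HRD1Alb fasting (4 higher and 1 lower) and 0 for the interaction. It gained 3 calls, all of Cyp4f14, in WT fasting, in HRD1Alb fasting (-0.91, adjusted p = 0.0279) and between genotypes in refed liver (-1.04, adjusted p = 0.0227), and lost 3, Cyp4v3 in fasted liver (adjusted p = 0.0680), Cyp4f15 in refed liver (0.0621) and Cyp4a10 in HRD1Alb fasting (0.0532). Libraries with the same number deviated together at r = 0.0161 to 0.179 over the 6 pairs of groups, highest between fasted and refed WT liver. An r over all genes cannot show whether part of the genes share a pairing. Mup7 and Cyp2b9, given above, did deviate with the same sign in fasted and refed WT libraries of the same number. The labels do not say what the number stands for.

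Of the called members, only Cyp4f15 in HRD1Alb fasting reversed under an alternative, at -0.0408 with the Cyp4f genes summed. Summing also reversed Cyp4a31 and Cyp4a32 between genotypes in fasted liver (-0.25), Cyp4a31 in refed liver (-0.52), Cyp4f13 and Cyp4f15 in WT fasting (-0.43) and Cyp4f13 in HRD1Alb fasting (-0.0408). The interaction of Cyp4f13 was -0.00118 with RLE and -0.00102 with DESeq2. With 1 library left out, values that crossed 0 ranged from -0.48 to 0.10 for Cyp4a32 between genotypes in refed liver, in WT fasting from -1.33 to 0.16 for Cyp4a12a, -0.70 to 0.0841 for Cyp4a12b and -0.0221 to 0.0273 for Cyp4f13, and from -0.21 to 0.33 for Cyp4f13 in HRD1Alb fasting. For the interaction they ranged from -1.32 to 0.17 for Cyp4a12a, -0.58 to 0.30 for Cyp4a12b, -0.23 to 0.31 for Cyp4f13 and -0.0427 to 0.24 for Cyp4v3.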

Other observations

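Of the other Cyp4 genes, 8 of 13 listed were present in the files and 6 were tested. Cyp4f17, a close relative of the Cyp4f members, stood at 11.1 and 10.3 CPM in refed WT, 27.2 and 21.4 in fasted WT, 7.35 and 4.52 in refed HRD1Alb and 23.8 and 23.5 in fasted HRD1Alb liver. Its fasted values were above its refed values in both genotypes, and it was called higher in fasted HRD1Alb liver at a log2 fold change of 1.99 (SE 0.26, edgeR adjusted p = 0.00865), as was Cyp4f39 at 1.69 (SE 0.38, adjusted p = 0.036), which did not exceed 1.60 CPM. Cyp4f18, known from neutrophils and other myeloid cells, stood at 0.321 and 0.184 CPM in refed WT and 0.846 and 1.49 CPM in refed HRD1Alb liver, and was called higher at 2.19 (SE 0.47, adjusted p = 0.0312). Cyp4f16 was called higher in refed HRD1Alb liver as well, at 1.60 (SE 0.39, adjusted p = 0.0415), with 0.889 and 1.29 against 2.61 and 4.01 CPM. No other Cyp4 gene outside the 10 members was called in any comparison.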
